A study of Mus musculus with 12 samples.

Results

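The clustered histone genes were taken as the rows of both deposited tables whose symbol begins with Hist1h, Hist2h, Hist3h or Hist4h, with pseudogene symbols ending in -ps left out. The rule found 69 of 55421 genes, of which 6 are named as linker type (h1) and 63 as core type (20 h2a, 18 h2b, 12 h3 and 13 h4). Of the 69, 67 are annotated as protein-coding, while the h2a members Hist1h2aj and Hist1h2al are annotated as pseudogenes and were kept. RNA was sequenced from B16F10 cells, a mouse melanoma line grown in culture. The 4 groups had 3 libraries each: Bub1KO cells given 8 Gy of radiation, vector control (VC) cells given 8 Gy, untreated Bub1KO cells and untreated VC cells. Bub1, a kinase of the mitotic spindle checkpoint, was disrupted with CRISPR-Cas9 in the Bub1KO cells, and the series asked by what mechanism its loss strengthens radiotherapy. The time from irradiation to RNA extraction and the number of Bub1KO clones are details that no source used here gives.

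Histones are the proteins around which DNA is wound. Pairs of each core type (H2A, H2B, H3 and H4) build the nucleosome, and the linker type, H1, binds where DNA enters and leaves it. Most clustered genes are read when DNA is copied, so that new histones meet new DNA, and their mRNAs end just after a short stem-loop instead of carrying a poly(A) tail. Stem-loop binding protein (Slbp) holds this hairpin through processing, export, translation and decay. Some clustered genes can also give longer, polyadenylated mRNAs that run past the stem-loop, which have been described in differentiating and resting cells.

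A stem-loop of 6 base pairs and 4 loop bases was looked for along the GENCODE M21 transcripts. The search used the letters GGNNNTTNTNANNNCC on the transcribed strand, with arms that can pair (G with T allowed). It was found in 46 of the 69 genes, each time after the annotated stop codon, as 8 different sequences. Of these, 4 are shown because this hairpin stands where the mature clustered histone mRNA normally ends, 5′ to 3′ in DNA letters, with the 4 loop bases in capitals. The most frequent form was carried by 26 genes, among them the linker genes Hist1h1c, Hist1h1d and Hist1h1e, the h2a gene Hist1h2ac and the h3 gene Hist1h3d. The second shown was carried by 7 h4 genes, the third by 6 genes including Hist1h2bb, and the fourth by the h4 genes Hist1h4i and Hist2h4 only.
26 genes: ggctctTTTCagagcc
7 h4 genes: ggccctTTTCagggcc
6 genes: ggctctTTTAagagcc
Hist1h4i and Hist2h4: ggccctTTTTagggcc

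The annotated gene continued more than 100 bases past the stem-loop in 23 of these 46 genes and ended within 100 bases of it in the other 23. The motif had no match in the remaining 23 genes. Of those, 13 have no base annotated after the stop codon and 17 have fewer than 60, so the hairpin could lie beyond their annotated ends. Of the h2b genes, 4 had no match over longer annotated stretches: Hist1h2bc (742 bases after the stop codon) and Hist2h2be (2192), which were among the best counted, and Hist1h2bq (1608) and Hist1h2br (1803), which had 0 reads. Hist1h2bc, Hist1h2bq and Hist1h2br span more bases of the genome than their exons hold. Sequence between exons was not searched, so a hairpin there would have been missed.

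Most of the clustered genes had few or no reads. Over the 12 libraries, 22551 of 298294867 reads in genes fell in the 69 genes. No read was counted in 24 genes, 29 genes had reads but stayed below the filter for testing (a normalized count, that is reads divided by one size factor per library, of 10 or more in 3 or more of the 12), and 16 passed it. The 24 genes are listed at 0; a count of 0 over all libraries allows up to 3 reads, a limit that covers counting error in assigned reads only. The 16 tested genes were 23.2% of the 69 clustered genes, the 2 annotated pseudogenes included, against 54.2% of 21976 protein-coding genes. The lowest mean among the tested genes was 7.82 normalized counts (Hist1h2bb), and the highest among the others was 5.79 (Hist4h4).

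The counted reads were concentrated. Hist1h1c, which encodes the linker histone H1.2, held 48.0% of all reads in the clustered genes, and the top 3 genes together held 74.2%. Hist1h1c made up 89.5% of the summed h1 level, Hist3h2a 63.1% of h2a, Hist1h4i 60.3% of h4, Hist2h2be 45.3% of h2b and Hist1h3d 34.3% of h3. Divided by exon length, the mean over all libraries was 554 normalized counts per kb for Hist1h1c, 190.2 for Hist1h2bc, 95.6 for Hist2h2be, 84.98 for Hist1h4i and 44.7 for Hist3h2a. On the same scale of level per kb, the replacement histone genes H3f3b, H1f0 and H2afz, which lie outside the clusters and give polyadenylated mRNA, reached 4412, 3819 and 2320.

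**Figure D1:**
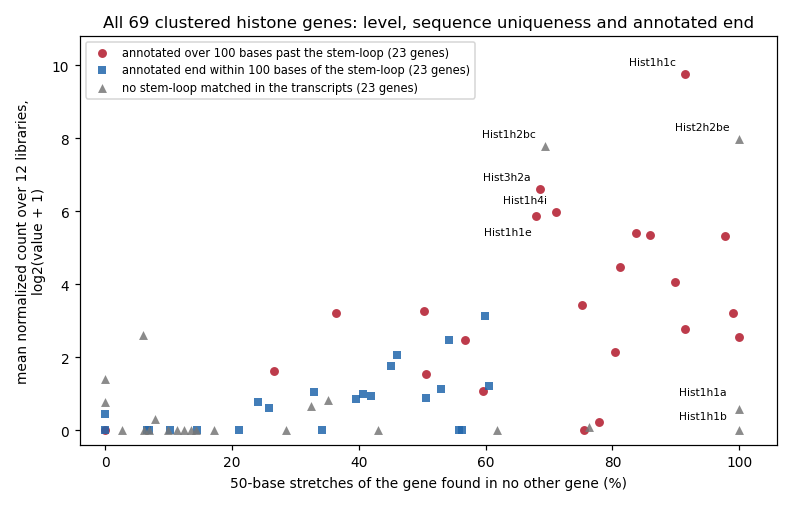
Each of the 69 clustered histone genes is a point: the horizontal axis gives the percentage of its 50-base stretches found in no other annotated gene, the vertical axis its mean normalized count over 12 libraries as log2(value + 1), and the symbol how its annotated end lies to the stem-loop. Hist1h1c stands highest, the genes annotated past the stem-loop fill most of the upper part, and Hist1h1b and Hist1h1a sit at or near 0 although all of their sequence is unique.

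Whether a gene was counted went with where its annotation ends. Among the 23 genes annotated more than 100 bases past the stem-loop, 13 passed the filter, 2 had no read, and 16176 reads were counted. Among the 23 whose annotation ends within 100 bases of it, 1 passed (Hist1h2bb), 9 had no read, and 339 reads were counted. A low share of unique 50-base stretches, those found in no other annotated gene, also went with low counts. Of 20 genes with under 20% unique stretches 0 passed and 15 had no read, and of 13 genes with 80% or more 8 passed. A stretch can be shared with a near-identical copy, so that a short read matches several genes equally well. It can also be shared with an annotated gene that overlaps at the same place, and the measure does not tell these apart. Hist2h3c1, for example, had 0% unique stretches, and 100% of its exon length overlaps another gene on the same strand. Among the 29 genes with at least 20% but under 80% unique stretches and a stem-loop, 6 of the 12 annotated past it passed and 1 of the 17 others did, so the difference by annotated end was present within that range of uniqueness. Annotated exon length differed by annotated end as well. It ran from 539 to 7425 bases in genes annotated more than 100 bases past the stem-loop. In genes whose annotation ends within 100 bases of it, exon length ran from 391 to 706 bases. The filter used counts not divided by length, and the part of length in the difference by annotated end was not tested. These comparisons are descriptions of 69 genes that share clusters and sequence. How the reads were assigned in the authors' counting is not given in the sources at hand.

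Some genes without a near-identical copy were low as well. Hist1h1b and Hist1h1a encode the linker histones H1.5 and H1.1, and 100% of their 50-base stretches are unique. Hist1h1b had no read in any library and Hist1h1a had 6 reads in all. No base is annotated after the Hist1h1b stop codon and 48 are annotated after that of Hist1h1a. Hist1h1t, the testis linker histone gene, also fully unique, had 60 reads and normalized counts of 2.02 to 4.20 in irradiated Bub1KO, 2.15 to 4.27 in irradiated VC, 6.32 to 8.13 in untreated Bub1KO and 5.80 to 6.45 in untreated VC libraries.

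The labels describe total RNA from which ribosomal RNA was removed, a preparation that keeps RNA with and without a poly(A) tail. Beside the low histone counts, a list of 13 other RNAs without a tail, chosen after values were seen, was also low: 2 of 13 passed the filter, and Rmrp, Terc and Rnu7 were listed at 0 in all 12 libraries. All 13 are also short, from 62 annotated bases (Rnu7) to 423 (Terc). The part of length in their low counts was not tested, so the list does not isolate the missing tail. The summed level of the 13 was 151 to 169 normalized counts in irradiated Bub1KO, 251 to 306 in irradiated VC, 204 to 345 in untreated Bub1KO and 141 to 196 in untreated VC libraries. Most of that sum came from Rn7sk, the 7SK RNA of transcription elongation control, at 108 to 300 normalized counts over the 12 libraries. H1fx, a replacement linker histone gene, was listed at 0 in every library as well. The part of RNA preparation and of read assignment in the low histone counts was not tested. The values below therefore describe the reads that could be counted, which come mostly from genes annotated past the stem-loop, and may miss the short stem-loop mRNAs.

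The libraries held 19380726 to 33087366 reads in genes. Bub1 itself had 886, 989 and 1120 normalized counts in irradiated Bub1KO libraries, against 1484, 1461 and 1507 in irradiated VC, and 1834, 1565 and 1588 in untreated Bub1KO libraries, against 2752, 3185 and 2859 in untreated VC. It was lower in Bub1KO in both conditions and still counted in each library. Untreated Bub1KO replicate 1 stood apart from its 2 partners: a chi-square of counts per gene gave 49.1 and 51.8 for its pairs, against 5.5 to 17.7 for all other pairs of replicates. All 7 melanocyte lineage markers passed the filter, summing to 5.56e+05 to 5.79e+05 normalized counts in irradiated Bub1KO, 4.31e+05 to 4.46e+05 in irradiated VC, 5.43e+05 to 5.52e+05 in untreated Bub1KO and 3.87e+05 to 4.04e+05 in untreated VC libraries. In no library did the 4 leukocyte markers sum to more than 2.15 normalized counts. The sum stayed at or below 3.1 for the 3 keratinocyte markers and at or below 13.15 for the 3 endothelial markers. Of 4 fibroblast genes Col1a1 and Col1a2 passed, while Dcn and Lum did not exceed 6.19. The fibroblast list summed to 185 to 222 in irradiated Bub1KO and 288 to 294 in irradiated VC libraries. Without treatment it summed to 75.2 to 126 in Bub1KO and 85.7 to 91.6 in VC libraries. The part of any marker list in the histone values was not tested. Separate cultures are not mentioned for replicate libraries, so p-values measure only the spread between the libraries at hand. In a bulk sample, fewer cells of a kind and less RNA per cell cannot be told apart.

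The sums by type showed the pattern with radiation. Summed over its 6 genes, h1 reached 1553, 1591 and 1563 normalized counts in irradiated Bub1KO and 1471, 1529 and 1416 in irradiated VC libraries. Untreated Bub1KO libraries had 345, 412 and 437, and untreated VC libraries 421, 384 and 462. Every irradiated library was therefore above every untreated one. The ratio of group means, irradiated over untreated, was 3.94 in Bub1KO and 3.48 in VC for h1. Without Hist1h1c the h1 sum averaged 89.8 ± 12.3 in irradiated Bub1KO, 94.1 ± 4.41 in irradiated VC, 125 ± 13.3 in untreated Bub1KO and 95.8 ± 17.2 in untreated VC libraries (SD, n = 3 each), so the rise of the sum came from Hist1h1c. For h2a the ratios were 1.83 in Bub1KO and 2.34 in VC.

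The h2b sum averaged 632 ± 26.5 in irradiated Bub1KO, 888 ± 35.6 in irradiated VC, 365 ± 14.7 in untreated Bub1KO and 325 ± 8.01 in untreated VC libraries (SD, n = 3 each). The h3 sum was far lower, at 31.6 ± 1.0 in irradiated Bub1KO, 58.2 ± 3.46 in irradiated VC, 13.4 ± 4.35 in untreated Bub1KO and 12.1 ± 3.84 in untreated VC libraries. The h4 sum averaged 78.3 ± 6.26 in irradiated Bub1KO and 135 ± 33.8 in irradiated VC, against 99.9 ± 16.2 in untreated Bub1KO and 96.6 ± 15.2 in untreated VC libraries. The 53 genes below the filter together summed to 34.7 ± 3.70 in irradiated Bub1KO, 74.3 ± 16.04 in irradiated VC, 53.8 ± 9.76 in untreated Bub1KO and 46.5 ± 6.60 in untreated VC libraries. They made up at most 1.83% of the mean h1 sum, 1.52% of h2b and 20.2% of h2a in any group. Of the mean h3 sum they made up 29.4% in irradiated Bub1KO, 26.7% in irradiated VC, 77.1% in untreated Bub1KO and 62.9% in untreated VC. Of the mean h4 sum they made up 15.8% in irradiated Bub1KO, 24.8% in irradiated VC, 11.2% in untreated Bub1KO and 10.6% in untreated VC. These sums have no test, since a few genes dominate them.

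**Figure D2:**
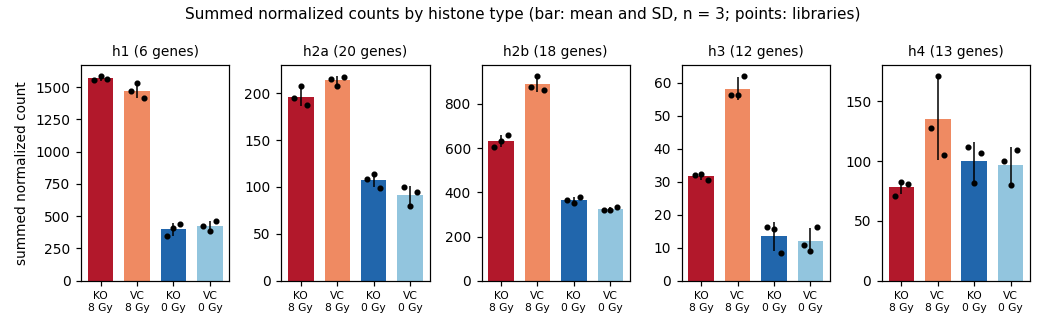
Bars give the mean summed normalized count of each histone type with its SD (n = 3), points the libraries, and groups run from irradiated Bub1KO (KO) and VC to untreated (0 Gy) Bub1KO and VC; each panel has its own vertical scale starting at 0. The h1 bars of both irradiated groups lie close together, while the h2b, h3 and h4 bars of irradiated Bub1KO lie below those of irradiated VC.

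The first comparison asked what 8 Gy did within each genotype. The filter bears on how it can be read. Of the 16 tested genes, 11 reached 10 normalized counts in enough libraries of both conditions and both genotypes. Hist1h3d, Hist2h3c2 and Hist1h2bg reached it in irradiated libraries only, Hist1h2bb in untreated libraries only, and Hist2h4 in VC libraries only. A gene admitted through 1 condition or genotype had to differ in that direction, so for these 5 genes values are given as a description.

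With limma on log2(value + 1) over 14721 genes and an adjusted p under 0.05, 6 of the 11 genes rose and 1 fell in Bub1KO, while 25.4% of all tested genes were higher and 23.9% lower. In VC, 7 of the 11 rose and 1 fell, while 27.6% of all tested genes were higher and 25.8% lower. The 6 genes that rose in both genotypes were Hist1h1c, Hist1h1d, Hist3h2a, Hist1h2ac, Hist1h2bc and Hist1h2be. The median log2 change of the 11 was 1.05 in Bub1KO and 0.98 in VC, and that of all tested genes was 0.03 in Bub1KO and 0.02 in VC. The comparisons of 8 Gy with no treatment and of Bub1KO with VC share libraries.

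Among the linker genes, Hist1h1c (chr13:23738808-23740367, plus strand, GRCm38, 1 exon over which the annotation runs 840 bases past the stem-loop) rose in both genotypes. It had 1476, 1501 and 1461 normalized counts in irradiated Bub1KO libraries, against 204, 297 and 317 in untreated Bub1KO libraries. In VC it had 1372, 1436 and 1326 after 8 Gy, against 318, 308 and 354 without treatment. The groups did not overlap in either genotype. The log2 change was 2.46 (SE 0.13, limma adjusted p = 1.02e-08) in Bub1KO and 2.07 (SE 0.13, limma adjusted p = 4.75e-08) in VC. The lowest untreated Bub1KO value, 204, was in the library that stood apart.

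Hist1h1e (chr13:23620629-23622558, minus strand), which encodes the linker histone H1.4, went the other way. It had 28.9, 28.3 and 30.5 normalized counts in irradiated Bub1KO libraries, against 113, 88.8 and 95.8 in untreated ones. Irradiated VC libraries had 28.4, 34.5 and 11.8, against 77.9, 54.2 and 91.98 in untreated VC. All 6 irradiated libraries lay below all 6 untreated ones. The log2 change was -1.72 (SE 0.31, limma adjusted p = 0.000427) in Bub1KO and -1.64 (SE 0.31, limma adjusted p = 0.000579) in VC. Of its exon length, 25.7% overlaps other genes on the same strand, Hist1h2be among them, and 68.0% of its 50-base stretches are unique.

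Hist1h1d, which encodes H1.3, also rose. In normalized counts it had 46.4, 58.7 and 66.2 in irradiated Bub1KO libraries, against 19.3, 18.9 and 17.9 in untreated ones. It had 65.4, 55.4 and 75.1 in irradiated VC libraries, against 18.2, 14.2 and 10.1 in untreated ones. Irradiated and untreated libraries did not overlap, with log2 changes of 1.55 in Bub1KO and 2.15 in VC (limma adjusted p = 8.04e-05 and 4.16e-06). Its annotated exons span 7425 bases and run 4884 bases past the stem-loop, the longest such stretch of the 46 genes.

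The upstream sequences of the 2 linker genes that moved in opposite directions are shown side by side, from the RefSeq promoter table (GRCm38.p6), 250 bases before to 50 after the gene start, 5′ to 3′ on the gene's strand. Hist1h1c lies on the plus strand at chr13:23738557-23738856 and Hist1h1e on the minus strand at chr13:23622509-23622808. Capitals mark exact matches, on either strand, to AAACACA (the H1 box of linker histone genes), CCAAT (bound by NF-Y) and TATAAA.
Hist1h1c: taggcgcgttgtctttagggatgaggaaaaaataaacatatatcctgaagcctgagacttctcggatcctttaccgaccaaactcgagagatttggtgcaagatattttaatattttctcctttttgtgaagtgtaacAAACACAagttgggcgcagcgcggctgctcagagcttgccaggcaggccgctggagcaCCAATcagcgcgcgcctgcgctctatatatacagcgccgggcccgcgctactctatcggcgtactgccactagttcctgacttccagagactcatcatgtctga
Hist1h1e: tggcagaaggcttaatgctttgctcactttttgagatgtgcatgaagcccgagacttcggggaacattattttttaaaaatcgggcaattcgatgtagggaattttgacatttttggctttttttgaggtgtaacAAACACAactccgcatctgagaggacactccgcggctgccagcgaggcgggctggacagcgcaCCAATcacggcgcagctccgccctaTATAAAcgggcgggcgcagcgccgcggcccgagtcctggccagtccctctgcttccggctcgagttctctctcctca

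Both promoters hold the H1 box and CCAAT in the same order, and Hist1h1e also holds TATAAA. Across types, promoters of 62 of the 69 genes were in the table. The H1 box letters stood in 5 of 6 h1 promoters (83.3%), against 7.18% of all 32851 promoters of the table. CCAAT stood in all 6 h1, 18 h2a, 16 h2b and 10 h3 promoters and in 3 of 12 h4 promoters (25%), against 37.4% of all promoters. The octamer ATTTGCAT, bound by Oct1 (Pou2f1), stood in 7 of 18 h2a and 6 of 16 h2b promoters and in 0 of those of the other types, against 1.74% of all promoters. Motifs were searched on both strands; TATAAA and AAACACA can share letters where they meet. A match is a description of letters, not a bound site.

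For h2a, Hist3h2a and Hist1h2ac passed the filter. Hist3h2a had 150, 136 and 133 normalized counts in irradiated Bub1KO libraries, against 64.0, 65.0 and 62.1 in untreated ones. In VC it had 141, 117 and 153 after 8 Gy, against 48.1, 34.8 and 47.9 without treatment. All irradiated libraries lay above all untreated ones, by 1.12 (log2, SE 0.15, limma adjusted p = 4.64e-05) in Bub1KO and 1.64 (SE 0.15, limma adjusted p = 1.55e-06) in VC. Of its exon length, 33.0% overlaps Trim17 on the same strand, so reads there cannot be told apart between the genes.

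Hist3h2a lies apart from the large cluster, on the plus strand of chromosome 11, and its promoter (chr11:58954435-58954734, RefSeq, GRCm38.p6) is shown because it had the highest level per kb among the tested h2a genes. Capitals mark the octamer letters on the opposite strand and CCAAT on both strands.
Hist3h2a: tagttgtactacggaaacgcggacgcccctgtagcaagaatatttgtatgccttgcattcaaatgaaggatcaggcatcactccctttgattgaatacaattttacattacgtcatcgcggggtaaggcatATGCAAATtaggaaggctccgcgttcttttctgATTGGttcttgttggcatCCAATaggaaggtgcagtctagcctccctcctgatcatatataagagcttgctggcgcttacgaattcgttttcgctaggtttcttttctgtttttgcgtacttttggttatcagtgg

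Hist1h2ac had 38.2, 60.7 and 48.3 normalized counts in irradiated Bub1KO libraries, against 35.6, 22.2 and 14.7 in untreated ones. It had 60.4, 64.4 and 49.3 in irradiated VC libraries, against 33.2, 21.9 and 32.8 in untreated ones. The groups did not overlap in either genotype, though in Bub1KO the lowest irradiated library, 38.2, was close to the highest untreated one, 35.6. The log2 changes were 1.05 (SE 0.29, limma adjusted p = 0.00791) in Bub1KO and 0.98 (SE 0.29, limma adjusted p = 0.0111) in VC. Without untreated VC replicate 2 the VC change did not pass the threshold (limma adjusted p = 0.0527). Hist1h2af, the next h2a gene by mean normalized count, stayed below the filter with 1.05 to 2.06 normalized counts in irradiated Bub1KO, 1.07 to 5.45 in irradiated VC, 4.07 to 8.42 in untreated Bub1KO and 7.56 to 9.03 in untreated VC libraries, and 6% of its sequence is unique.

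Of the 4 h2b genes that reached the filter in both conditions, 2 rose in Bub1KO and 3 rose in VC, and 0 fell. Hist1h2bc (chr13:23684199-23692908, plus strand) had 272, 311 and 275 normalized counts in irradiated Bub1KO libraries, against 61.0, 67.5 and 94.8 in untreated ones. In VC it had 435, 501 and 416 after 8 Gy, against 63.0, 67.1 and 74.3 without treatment. Every irradiated library was above every untreated one, and irradiated VC libraries were the highest. The log2 change was 1.95 (SE 0.15, limma adjusted p = 3.01e-07) in Bub1KO and 2.71 (SE 0.15, limma adjusted p = 2.04e-08) in VC.

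Hist2h2be (chr3:96221119-96223738, plus strand), with the largest share of h2b reads, had 242, 237 and 288 in irradiated Bub1KO libraries, against 242, 221 and 216 in untreated ones. These groups overlapped, and the log2 change of 0.17 (SE 0.10) did not pass (limma adjusted p = 0.19). It passed as higher when the GC trend was removed, with or without the replicate block. In VC it had 331, 326 and 322 after 8 Gy, against 183, 187 and 209 without treatment. There the groups were apart, with a log2 change of 0.76 (SE 0.10, limma adjusted p = 4.18e-05).

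Hist1h2be rose in both genotypes, with 55.7, 48.5 and 59.9 normalized counts in irradiated against 18.3, 11.5 and 13.7 in untreated Bub1KO libraries. It had 66.8, 54.5 and 83.7 in irradiated VC libraries, against 30.7, 27.1 and 22.7 in untreated ones. The log2 changes were 1.86 (SE 0.22) in Bub1KO and 1.31 (SE 0.22) in VC (limma adjusted p = 1.2e-05 and 0.000239). Its annotated exons overlap those of Hist1h1e on the same strand, over 11.2% of their length, and Hist1h1e fell where Hist1h2be rose.

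The other h2b genes were lower and more scattered. Hist1h2bb had 3.10, 4.04 and 6.30 normalized counts in irradiated Bub1KO libraries, against 14.2, 13.2 and 12.6 in untreated ones, a log2 change of -1.43 (SE 0.54). It passed the filter through untreated libraries only, so this is a description. VC libraries had 6.40, 0.91 and 6.44 after 8 Gy, against 9.95, 12.9 and 3.78. It is the one tested gene whose annotation ends within 100 bases of the stem-loop, 23 bases past it. In VC Hist1h2bg, admitted through irradiated libraries only, had 17.8, 20.9 and 6.44 in irradiated and 5.80, 3.87 and 1.26 in untreated libraries. Hist1h2bh passed in neither genotype, at 14.7 to 23.7 in irradiated Bub1KO, 15.6 to 23.6 in irradiated VC, 21.3 to 30.5 in untreated Bub1KO and 19.4 to 21.6 in untreated VC libraries.

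Both tested h3 genes were near 0 without radiation. Hist1h3d (chr13:23575763-23577011, plus strand) had 11.4, 12.1 and 9.45 normalized counts in irradiated Bub1KO libraries, against 1.02, 1.65 and 0 in untreated ones. In VC it had 23.5, 25.4 and 25.7 after 8 Gy, against 3.32, 2.58 and 2.52 without treatment. The fitted log2 change was 2.77 (SE 0.38) in each genotype, on a scale where the added 1 damps low values. Hist2h3c2 had 12.4, 12.1 and 9.45 in irradiated Bub1KO against 3.05, 2.47 and 1.05 in untreated Bub1KO libraries. It had 12.1, 20.9 and 20.4 in irradiated VC against 2.49, 0 and 2.52 in untreated VC libraries, and 36.5% of its 50-base stretches are unique. Both passed the filter through irradiated libraries only, so these changes are descriptions. Hist1h3g, the next h3 gene by mean normalized count, had 0 to 10.7 normalized counts over the 12 libraries and was not tested.

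None of the 3 tested h4 genes passed the threshold for radiation in either genotype by limma, 0 had an unadjusted p under 0.05 there, and edgeR and DESeq2 on the recovered reads also called 0. Hist1h4i (chr13:22040636-22041362, minus strand), the highest of them per kb, had 40.2, 48.5 and 57.8 normalized counts in irradiated Bub1KO libraries, against 70.1, 51.8 and 68.5 in untreated ones. In VC it had 69.7, 88.0 and 66.5 after 8 Gy, against 55.5, 50.3 and 74.3 without treatment. The groups overlapped in both genotypes, with log2 changes of -0.37 (SE 0.20) in Bub1KO and 0.32 (SE 0.20) in VC. Hist1h4d gave -0.77 (SE 0.38) and -0.36 (SE 0.38), and Hist2h4 -0.10 (SE 0.46) and 0.63 (SE 0.46), each with Bub1KO before VC. Without irradiated Bub1KO replicate 2, Hist1h4d passed as lower in Bub1KO.

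**Figure D3:**
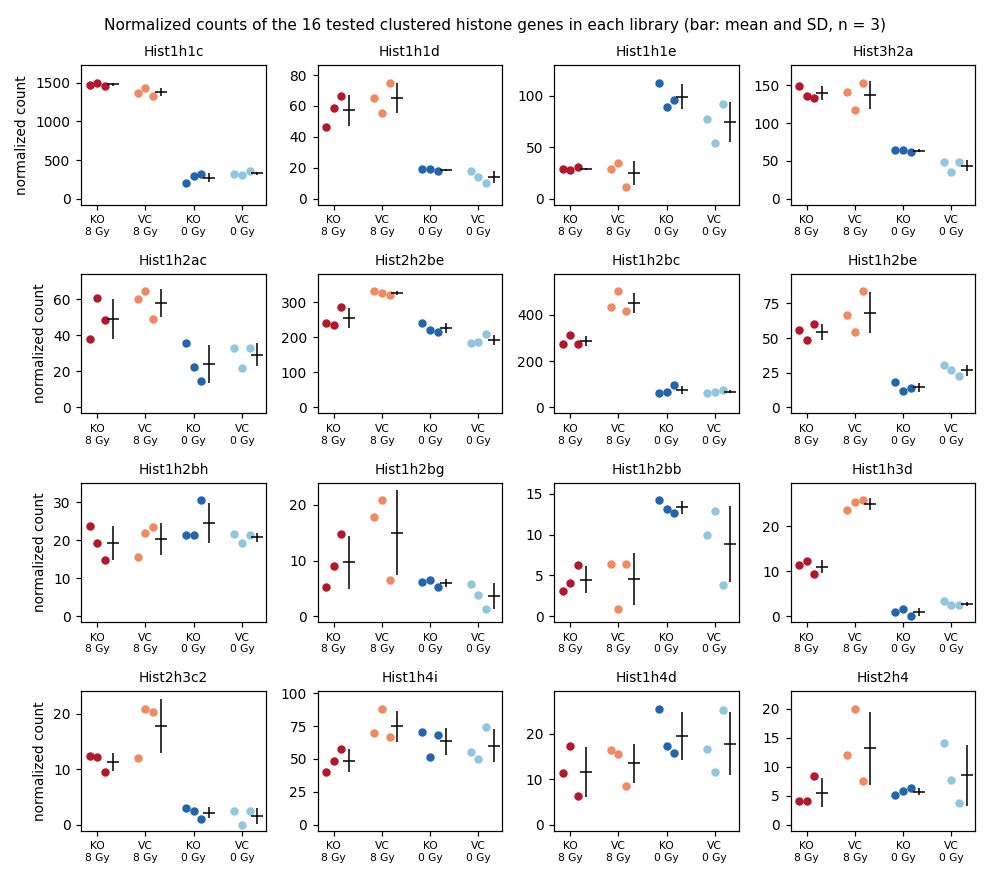
Each panel is 1 tested gene, each point 1 library on a linear axis of normalized counts, with the mean and SD of 3 libraries beside the points, and groups run from irradiated Bub1KO (KO) and VC to untreated (0 Gy) Bub1KO and VC. Hist1h1e and Hist1h2bb show higher points without radiation, Hist1h1c and Hist1h2bc show higher points with it, and the h4 genes overlap.

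The second comparison asked how Bub1KO differed from VC after 8 Gy. By limma 3 of the 11 genes admitted through both conditions and genotypes were lower in Bub1KO and 0 higher. Over all tested genes 16.4% were lower and 14.3% higher. Of the 16 tested clustered genes 4 were lower and 0 higher. All 4 were core genes: Hist1h2bc, Hist2h2be, Hist1h3d and Hist1h4i. Hist2h4, admitted through VC libraries only, had 4.13, 4.04 and 8.40 normalized counts in irradiated Bub1KO libraries, against 12.1, 19.97 and 7.51 in irradiated VC. Hist1h3d reached 10 in 3 VC libraries and 2 Bub1KO libraries, so its passing leaned on VC and its difference is a description. The other 3 were among the 11 genes admitted through both. The median log2 difference was -0.25 over those 11 genes and -0.01 over all tested genes.

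The values of these genes after 8 Gy stand above. For Hist1h2bc, the 3 Bub1KO libraries (272 to 311) lay below the 3 VC libraries (416 to 501), with a log2 difference of -0.65 (SE 0.10, limma adjusted p = 0.000327). For Hist2h2be the Bub1KO libraries (237 to 288) again lay below those of VC (322 to 331), by a smaller log2 difference of -0.36 (SE 0.10, limma adjusted p = 0.0151). For Hist1h3d, as a description, they lay at 9.45 to 12.1, against 23.5 to 25.7 in VC, a log2 difference of -1.12 (SE 0.26). For Hist1h4i they lay at 40.2 to 57.8, against 66.5 to 88.0, a log2 difference of -0.61 (SE 0.18, limma adjusted p = 0.0236).

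These 4 calls differed in how firmly they held. Hist1h2bc passed in all 16 alternative analyses of this comparison. Hist1h3d, whose call is a description because of the filter, lost it in 1, when all 12 libraries were fitted together (limma adjusted p = 0.0671). Hist1h4i lost it in 5 and Hist2h2be in 4, including when Bub1KO replicate 1 (limma adjusted p = 0.0892 for Hist1h4i and 0.0535 for Hist2h2be) or Bub1KO replicate 2 (0.0596 and 0.0688) was left out. Hist1h4i also lost it without VC replicate 2 (limma adjusted p = 0.101) and Hist2h2be without VC replicate 1 (0.0548). In the authors' deposited table, whose fold changes are VC over Bub1KO, 12 of the 69 genes have an adjusted p for this comparison and 2 were lower in Bub1KO at 0.05: Hist1h2bc (log2 0.65, adjusted p = 0.000135) and Hist2h2be (log2 0.35, adjusted p = 0.0248). Hist1h4i and Hist1h3d had adjusted p of 0.0583 and 0.0607 in the authors' deposited table.

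None of the 3 linker genes passed in this comparison, and whether linker and core genes differ was not tested. Hist1h1c averaged 1479 ± 19.98 in irradiated Bub1KO and 1378 ± 55.4 in irradiated VC libraries (SD, n = 3 each), and every Bub1KO library was above every VC library. The log2 difference of 0.10 (SE 0.06) did not pass (limma adjusted p = 0.218). Hist1h1d differed by -0.19 (SE 0.18) and Hist1h1e by 0.35 (SE 0.33), neither past the threshold. Among core genes that did not pass, Hist3h2a averaged 140 ± 8.82 in irradiated Bub1KO and 137 ± 18.4 in irradiated VC libraries, a log2 difference of 0.03 (SE 0.13).

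Without treatment, 0 of the 16 tested genes differed between Bub1KO and VC by limma, against a background of 2.31% of all tested genes higher and 1.71% lower. Both Hist1h2be and Hist3h2a had an unadjusted p under 0.05 by limma, a threshold at which the share of all tested genes was not counted. With edgeR and DESeq2 on the recovered reads 0 were called as well. Hist1h2be had 18.3, 11.5 and 13.7 normalized counts in Bub1KO libraries, against 30.7, 27.1 and 22.7 in VC libraries. These did not overlap, with a log2 difference of -0.86 (SE 0.27, limma adjusted p = 0.12), and it passed when Bub1KO replicate 1, the library that stood apart, was left out, where 8.4% of all tested genes were lower. Hist3h2a ran the other way, with 64.0, 65.0 and 62.1 in Bub1KO against 48.1, 34.8 and 47.9 in VC libraries, a log2 difference of 0.55 (SE 0.19, limma adjusted p = 0.159). The 4 genes that were lower in irradiated Bub1KO gave 0.10 (Hist1h2bc), 0.23 (Hist2h2be), -1.12 (Hist1h3d, from values of 0 to 3.32) and 0.09 (Hist1h4i) in untreated cells.

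Whether radiation acted differently in the 2 genotypes was tested as the interaction, which takes the difference of Bub1KO from VC without treatment away from that after 8 Gy. By limma 0 of the 16 genes passed, against a background of 0.136% of all tested genes higher and 0.414% lower. At an unadjusted p under 0.05 there were 4, all with a negative value: Hist2h2be, Hist1h2bc, Hist1h4i and Hist3h2a. The share of all tested genes under this unadjusted p was not counted, so these 4 have no background to be read against. The values were -0.59 (SE 0.15, limma adjusted p = 0.11) for Hist2h2be and -0.75 (SE 0.22, limma adjusted p = 0.159) for Hist1h2bc. Hist1h4i gave -0.69 (SE 0.28) and Hist3h2a -0.52 (SE 0.22), while Hist1h1c gave 0.39 (SE 0.18). edgeR on the recovered reads called 0 and DESeq2 called 2 as lower, Hist1h2bc and Hist2h2be, with 1.3% of all tested genes lower. The same 2 genes passed by limma without untreated Bub1KO replicate 1, but there 7.53% of all tested genes were lower. A smaller rise of h2b genes in Bub1KO than in VC was therefore not established by the main test.

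**Figure D4:**
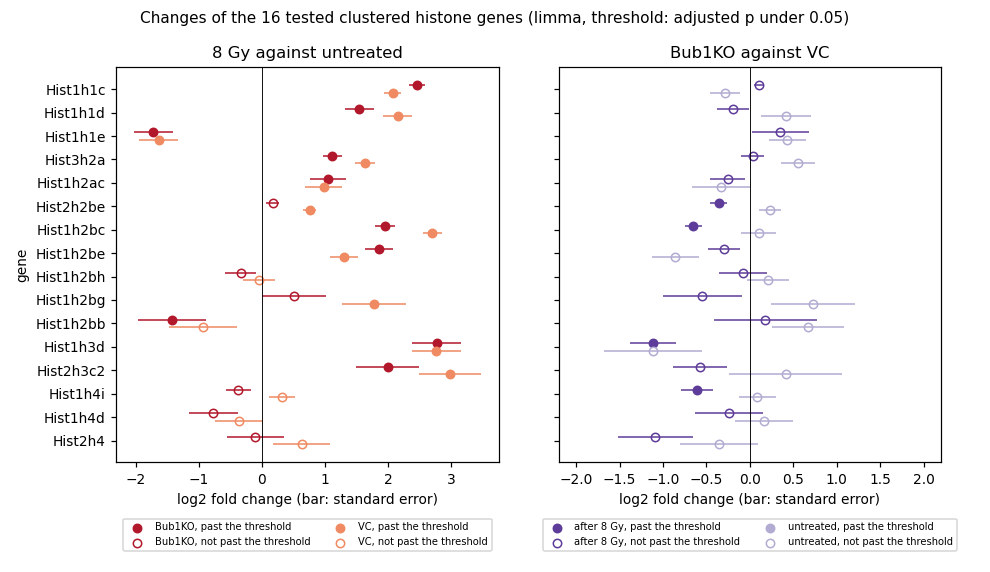
For each tested gene, points give the log2 fold change and bars its standard error; the left panel sets 8 Gy against no treatment in Bub1KO (red) and VC (orange), the right panel Bub1KO against VC after 8 Gy (dark) and untreated (light), and filled points passed an adjusted p of 0.05 by limma (in the left panel a description for Hist1h2bg, Hist1h2bb, Hist1h3d and Hist2h3c2, which were admitted through 1 condition). In the left panel most points lie right of 0 with Hist1h1e far left. The filled points of the right panel are Hist2h2be, Hist1h2bc, Hist1h3d (there also a description) and Hist1h4i, all left of 0.

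Genes that make, process and place histones were read from 4 lists beside the clustered genes. Of 16 tested genes for transcription and 3′ processing of histone mRNA, 12 fell and 0 rose after 8 Gy in Bub1KO, and 10 fell and 0 rose in VC. Over all tested genes 23.9% were lower in Bub1KO and 25.8% in VC. Slbp averaged 1277 ± 40.8 in irradiated Bub1KO, 1456 ± 80.5 in irradiated VC, 2397 ± 252 in untreated Bub1KO and 2670 ± 35.4 in untreated VC libraries. It fell by 0.90 (log2, limma adjusted p = 7.39e-07) in Bub1KO and by 0.88 (9.83e-07) in VC. Npat, the activator that gathers at histone gene clusters in S phase, fell by 0.47 in Bub1KO and by 0.37 in VC, and Eri1, an exonuclease that trims histone mRNA ends, fell by 0.77 in Bub1KO and by 0.68 in VC.

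The genes read when DNA is copied fell as well. Of 30 G1/S and DNA replication genes 29 fell in Bub1KO and 28 in VC, with median log2 changes of -1.01 in Bub1KO and -0.88 in VC. Of 20 chaperone and assembly genes 17 fell in each genotype and 1 rose, in VC (Ipo4, an importin that carries histones into the nucleus, at 0.95). Nasp, a chaperone of H3, H4 and linker histones, fell by 1.10 in Bub1KO and by 1.11 in VC, and Anp32e, which removes H2A.Z, fell by 1.13 in Bub1KO and by 1.06 in VC. Both lists stood above the share of all tested genes that fell. What part a shift in the share of cells copying DNA had in these values was not tested.

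Of 9 replacement histone genes, 6 fell and 1 rose in Bub1KO, and 7 fell and 1 rose in VC, again beside 23.9% and 25.8% of all tested genes lower. The one that rose in both was H2afj, an H2A variant whose protein has been reported to build up in senescent human cells. It averaged 1283 ± 32.5 normalized counts in irradiated Bub1KO and 1789 ± 231 in irradiated VC, against 799 ± 44.3 in untreated Bub1KO and 830 ± 102 in untreated VC libraries. It rose by 0.68 (log2, limma adjusted p = 0.000104) in Bub1KO and by 1.11 (1.49e-06) in VC. Cenpa, the centromeric H3 variant, fell by 0.72 in Bub1KO and by 0.86 in VC.

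Between genotypes after 8 Gy, the G1/S list had 14 genes lower in Bub1KO and 0 higher, the chaperone list 6 lower and 0 higher, the processing list 4 lower and 1 higher, and the replacement list 2 lower (H2afj and H2afz) and 2 higher. Over all tested genes 16.4% were lower and 14.3% higher, so the processing and replacement lists (4 of 16 and 2 of 9 lower) stood near that share. H1f0, the replacement linker histone of differentiated and resting cells, averaged 7616 ± 391 in irradiated Bub1KO and 4708 ± 269 in irradiated VC libraries, and 12052 ± 862 in untreated Bub1KO and 7015 ± 387 in untreated VC libraries. It was higher in Bub1KO by 0.69 (log2, limma adjusted p = 5.11e-06) after 8 Gy and by 0.78 (limma adjusted p = 0.00224) without treatment, where it was the one gene of these 4 lists that differed. It fell after 8 Gy in both genotypes, by 0.66 in Bub1KO and by 0.58 in VC, while the clustered linker gene Hist1h1c rose.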

How the data were processed

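RNA of 12 B16F10 libraries was measured, 3 in each of 4 groups. Per the labels' protocols, total RNA was extracted with TRIzol and made into stranded libraries after removal of ribosomal RNA. Per the submitters' processing notes, Trim Galore, cutadapt, STAR, SAMtools and HTSeq were used, with build GRCm38.p6 (mm10). Versions, the annotation release, the strand setting and the treatment of reads with several matches are given in no source used here. The authors deposited a signal per gene and library, the read count divided by a size factor. The same deposited tables hold, for VC over Bub1KO, log2 fold changes, a test score and p-values. Each deposited signal value was a whole number of reads times 1 step per library (100% within 0.01 of a read), so reads were recovered by division.

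Genes reaching 10 in 3 or more libraries were tested (14721 of 55421) with limma 3.58.1 (R 4.3.3), with a mean-variance trend, on log2(value + 1), a scale that understates changes of low genes, with Benjamini-Hochberg adjustment over all of them. Bub1KO was compared with VC within the 6 libraries of a condition. Irradiation effects and the interaction used all 12 libraries. The procedure was tested on simulated data. Alternatives were pseudocounts of 0.5 and 5, no filter, TMM scaling, edgeR 4.0.16 and DESeq2 1.42.0 on the recovered reads, removal of a GC trend, a replicate block, other sets of libraries in the fit, and leaving out each library. Sums, ratios and sequence features were computed with Python 3.11.15. Positions, overlaps and stem-loops came from GENCODE M21, and promoters from RefSeq, where 62 of 69 symbols matched.

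The genes, lists and tests were chosen with earlier results of these data known. Counts over the 11 genes that reached the filter in both conditions and genotypes were added after values were seen. Genes were named by rule: each tested linker gene, the 3 highest of each core type, up to 5 with the smallest p per comparison and direction, and, of 3 related lists, the 4 highest and the 2 with the smallest p per comparison. Genes named outside this rule (Hist1h1a, Hist1h1b, Hist1h1t, Hist1h2bg, Hist1h2bh, Hist1h2bq, Hist1h2br, Hist4h4, Npat, H1fx, the RNAs without a tail) were chosen after their values were seen.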

Additional observations from a re-analysis of the deposited data

How the results depend on the processing

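No change of a clustered gene that passed the threshold in the main fit reversed direction under any alternative run. Changes that did not pass were not followed for direction. Of the 6 genes admitted through both conditions that were higher after 8 Gy in both genotypes, each kept its call in all alternatives except Hist1h2ac in VC. The counts below are over all 16 tested genes, those admitted through 1 condition included, except without the filter, where 45 clustered genes were fitted. The count of clustered genes differing in untreated cells was 0 in each direction; without the filter it was 1 higher (Hist2h3b), with all 12 libraries in the fit 1 higher (Hist3h2a) and 1 lower (Hist1h2be), and with 1 library left out 0 to 1 lower. After 8 Gy, 4 were lower in Bub1KO, 2 with all 12 libraries in the fit, and 2 to 5 with 1 library left out, the 2 arising without Bub1KO replicate 1 or 2. Without the filter, 16 of the 45 rose and 2 fell after 8 Gy in VC, beside 14.7% of all fitted genes higher and 11.6% lower. Between genotypes after 8 Gy, Hist2h2aa2 was gained as lower in Bub1KO, and Hist1h4i and Hist2h2be lost their calls. Of all fitted genes 3.15% were lower there. After 8 Gy in Bub1KO without the filter, 4 fell, and Hist1h2ad and Hist1h3b were gained as higher. Beside them 13.1% of all fitted genes were higher and 10.7% lower. The genes gained without the filter all lay below it. In the main fit, 8 were higher after 8 Gy in Bub1KO, and 9 with the GC trend removed, with or without the replicate block (Hist2h2be gained). There 2 fell after 8 Gy, but 1 with a pseudocount of 0.5, 1 with the replicate block, and 1 to 2 with 1 library left out; Hist1h2bb was lost in these and without the filter. For the interaction, DESeq2 called 2 lower, the fit with the GC trend removed 1, the replicate block with GC trend removed 1, and leaving out 1 library 0 to 2. The cause of these shifts was not tested. Over all tested genes, 591 differed in untreated cells, 329 without the filter, 312 with the replicate block, 1725 with the GC trend removed, 1769 with all 12 libraries, 2736 without Bub1KO replicate 1 and 172 to 301 without any other 1 library. After 8 Gy 4512 differed, 2062 without the filter and 2105 with all 12 libraries, and for the interaction 81, 283 by DESeq2, 386 with the GC trend removed, 1447 without untreated Bub1KO replicate 1 and 33 to 86 without any other 1 library. Same-numbered libraries did not deviate together (r of -0.193 to 0.0549), so the numbers were not taken as pairs. Low counts kept 53 of the 69 genes from being tested.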
